A study of Mus musculus with 16 samples.

Results

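The genes described here are the antioxidant and detoxification enzymes of the lung, a list of 39 genes named by their function. The list was chosen with earlier results of these data known. The list holds the superoxide dismutases, catalase, glutathione peroxidases, peroxiredoxins and thioredoxin, the enzymes of glutathione synthesis, glutathione S-transferases, heme oxygenases, paraoxonases, metallothioneins and the methyltransferase Inmt. Of the 39 genes, 36 had at least 1 probe set that carries their symbol alone, 47 such probe sets in all among the 10855 of the array. Prdx5 and Prdx6 had none, and both probe sets of Prdx1 are also annotated to Gm21399, so these 3 genes were not analyzed. Where a gene had several probe sets, the one with the highest mean log2 signal stood for it. Cat (by its dimmer probe set), Pon1, Pon2 and Inmt at E18.5 and Gstm5 (by another probe set) at term are also among the genes that the study picked out on these same arrays, so their values there are not independent evidence of a difference.

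Whole lungs were taken from T1α(-/-) mice and T1α(+/+) mice bred from T1α(+/-) parents, at embryonic day 18.5 (E18.5) or at term, within minutes of delivery. T1α (gene symbol Pdpn) is a membrane glycoprotein of alveolar type I cells, and the (-/-) mice lack it in every tissue because the gene was targeted in the germ line. The 10 arrays of E18.5 were 5 from (-/-) lungs (replicates A to E) and 5 from (+/+) lungs (replicates I to M). The 6 arrays of term were 3 from (-/-) lungs (replicates F to H) and 3 from (+/+) lungs (replicates N to P). Every value below is the linear signal of a probe set, scaled by the authors to a common mean on each array.

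These enzymes deal with reactive oxygen and with foreign or reactive chemicals. Superoxide dismutases turn superoxide into hydrogen peroxide, which catalase, glutathione peroxidases and peroxiredoxins remove, and glutathione S-transferases couple glutathione to reactive compounds. In the fetal lung several of them are known to rise shortly before birth, when the lung meets the oxygen of the air, and many are targets of the transcription factor Nrf2, which binds antioxidant response elements.

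Promoter sequences of 5 genes that rose over time and of Mt2, the neighbor of Mt1, are printed here. Each is the 250 bases before a listed RefSeq transcription start in GRCm38.p6, 5′ to 3′ in the direction of the gene. For Mt1, Gclm and Pon1 the listed start lies inside the gene, whose outer boundary is at 94178883, 122245487 and 5193987. Their windows thus reach into the gene, and matches are not counted over like distances from the boundary. Pon1 (chr6:5193947-5194196, minus strand) and Inmt (chr6:55174991-55175240, minus strand) had the greatest increases. Gclm (chr3:122245307-122245556, plus strand) and Mgst1 (chr6:138140277-138140526, plus strand, the upstream of its 2 listed starts) also increased. Mt1 (chr8:94178839-94179088, plus strand) and Mt2 (chr8:94172368-94172617, plus strand) are neighboring metallothionein genes, of which Mt1 passed the test over time and Mt2 did not, and the difference between them was not tested. Capitals mark matches, on either strand, to the core antioxidant response element TGACNNNGC or to the metal response element TGCACNC or TGCGCNC.
Pon1: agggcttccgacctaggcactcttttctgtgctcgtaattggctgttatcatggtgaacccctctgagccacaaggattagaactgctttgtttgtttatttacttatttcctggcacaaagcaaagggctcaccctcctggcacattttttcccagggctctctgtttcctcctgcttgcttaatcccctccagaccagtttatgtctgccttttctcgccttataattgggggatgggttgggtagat
Inmt: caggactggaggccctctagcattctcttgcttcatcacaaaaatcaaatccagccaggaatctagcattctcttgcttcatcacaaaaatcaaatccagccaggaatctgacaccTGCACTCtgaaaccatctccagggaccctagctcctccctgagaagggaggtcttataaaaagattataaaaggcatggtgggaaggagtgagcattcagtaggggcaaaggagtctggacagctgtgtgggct
Gclm: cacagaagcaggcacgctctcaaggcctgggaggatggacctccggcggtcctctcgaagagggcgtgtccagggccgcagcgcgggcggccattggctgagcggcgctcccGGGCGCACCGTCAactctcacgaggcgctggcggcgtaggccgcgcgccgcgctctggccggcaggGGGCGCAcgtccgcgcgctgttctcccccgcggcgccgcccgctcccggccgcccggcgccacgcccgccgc
Mgst1: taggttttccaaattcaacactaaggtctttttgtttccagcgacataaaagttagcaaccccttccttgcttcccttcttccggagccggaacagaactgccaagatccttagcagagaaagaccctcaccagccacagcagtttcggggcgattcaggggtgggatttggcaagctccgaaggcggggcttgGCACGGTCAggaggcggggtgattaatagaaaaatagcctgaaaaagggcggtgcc
Mt1: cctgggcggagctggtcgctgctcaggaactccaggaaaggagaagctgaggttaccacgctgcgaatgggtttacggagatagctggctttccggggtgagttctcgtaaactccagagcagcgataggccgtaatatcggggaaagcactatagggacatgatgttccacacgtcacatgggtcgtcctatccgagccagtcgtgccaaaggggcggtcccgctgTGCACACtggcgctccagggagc
Mt2: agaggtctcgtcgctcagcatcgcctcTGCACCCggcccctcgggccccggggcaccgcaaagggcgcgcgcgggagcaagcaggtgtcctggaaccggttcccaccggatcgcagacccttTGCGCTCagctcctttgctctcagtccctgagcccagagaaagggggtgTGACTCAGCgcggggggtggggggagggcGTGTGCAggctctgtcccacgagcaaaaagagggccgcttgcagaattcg
In the Gclm sequence the antioxidant element match (-134 to -126 relative to the start) overlaps 1 of 2 metal element matches (-138 to -132). Mgst1 held 1 antioxidant response element match, Mt2 held 1 of these and 3 metal response element matches, and Mt1 and Inmt held 1 metal response element match each. Pon1 had no match to either in this window. Of the list, 32 genes had a promoter in the table, 41 sequences in all, and 17.1% of the 41 held the antioxidant element against 10.2% of all 32851 promoters. The metal response element stood in 22.0% of the 41 and in 21.4% of all promoters. These matches describe the letters only. The 3 paraoxonase genes lie side by side on chromosome 6 (Pon1 from 5168090 to 5193987, Pon3 from 5216256 to 5256285 and Pon2 from 5264620 to 5298345 of GRCm38.p6), and Gstm1, Gstm2 and Gstm5 lie together on chromosome 3.

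T1α itself measured 1.4 to 21.2 in (-/-) and 60.2 to 135.5 in (+/+) lungs at E18.5, and 8.6 to 30.0 and 39.7 to 214.9 at term. The genotype in the label of each array thus held, and T1α does not check the time. Replicate I, an E18.5 (+/+) lung, stood apart with a lower quartile of 29.8 against 8.7 to 14.9 on the other arrays. The labels give no sex. In (+/+) lungs sex-linked Xist was 14.3 to 80.0 at E18.5 and 6.7 to 10.2 at term, and Eif2s3y, also sex-linked, 4.7 to 49.6 and 43.9 to 54.2. In (-/-) lungs Xist was 14.7 to 99.8 and 7.3 to 75.8, and Eif2s3y 2.1 to 33.4 and 6.5 to 58.9. The mix of sexes may thus differ between the times, above all in (+/+) lungs. The highest signal of an array was 12978.7 to 29523.9 at E18.5 and 6159.4 to 10575.8 at term. It can follow a single bright gene, and on M it equaled the signal of the type II cell marker Sftpc, 16090.0. The GAPDH 3′ to 5′ ratio was 0.962 to 1.72 at E18.5 and 0.827 to 2.63 at term. Whether the times also differed in measurement was not tested, and a difference between times cannot be told apart from that. Of 6 type II cell markers Sftpc was the strongest (5027.3 to 24193.1) and Sftpd was dim (5.8 to 53.7). Their sum, mostly Sftpc, was 17360 to 35090 at E18.5 and 10090 to 13830 at term, lower on every term array. Not all fell: of the 5 tested over time, averaged, 1 rose and 2 fell at an unadjusted p under 0.05 from limma. Mean Lpcat1 went from 558 to 948 in (-/-) and from 336 to 820 in (+/+) lungs. Type I cell markers (4, T1α among them) summed to 6225 to 11830 at E18.5 and 4315 to 7325 at term. Of these 4, 1 rose and 2 fell by the same test, and mean Cav1 went from 1072 to 1548 in (+/+) lungs. The part of these shifts in the differences over time was not tested. Hepatocyte markers, of a cell in which many of these enzymes are abundant, summed to 66.3 to 373 over 8 genes. In whole lung, fewer cells of a type and less RNA per cell cannot be told apart.

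At E18.5, most of these genes were slightly brighter in (-/-) than in (+/+) lungs, and Inmt and Pon1 differed the most. Of the 36 genes, 32 had a median signal in either genotype above the level that 45% of values exceed (54.2 at E18.5) and were tested with limma on log2(signal + 16). The log2 fold change, (-/-) over (+/+), was positive for 28 and negative for 4 (Prdx3, Prdx4, Gstt2 and Pon3), with a median of 0.20, where the 5831 probe sets tested had a median of 0.04 and 55.7% positive values. Without 1 array in turn the number of positive values was 22 to 27 and the median 0.15 to 0.25. Without (-/-) replicate E, 22 of 31 tested were positive. None had an adjusted p under 0.05 (background 0.0343%). At an unadjusted p under 0.05, 3 were higher in (-/-) lungs (background 2.68%) and 0 were lower (background 2.62%). The groups did not overlap for 1 gene, Pon2, which was higher in every (-/-) lung (background 0.669%), and for no gene in the other direction (background 0.463%). The methods' t-test on the signals gave the same counts, 3 unadjusted and 0 adjusted.

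**Figure D1:**
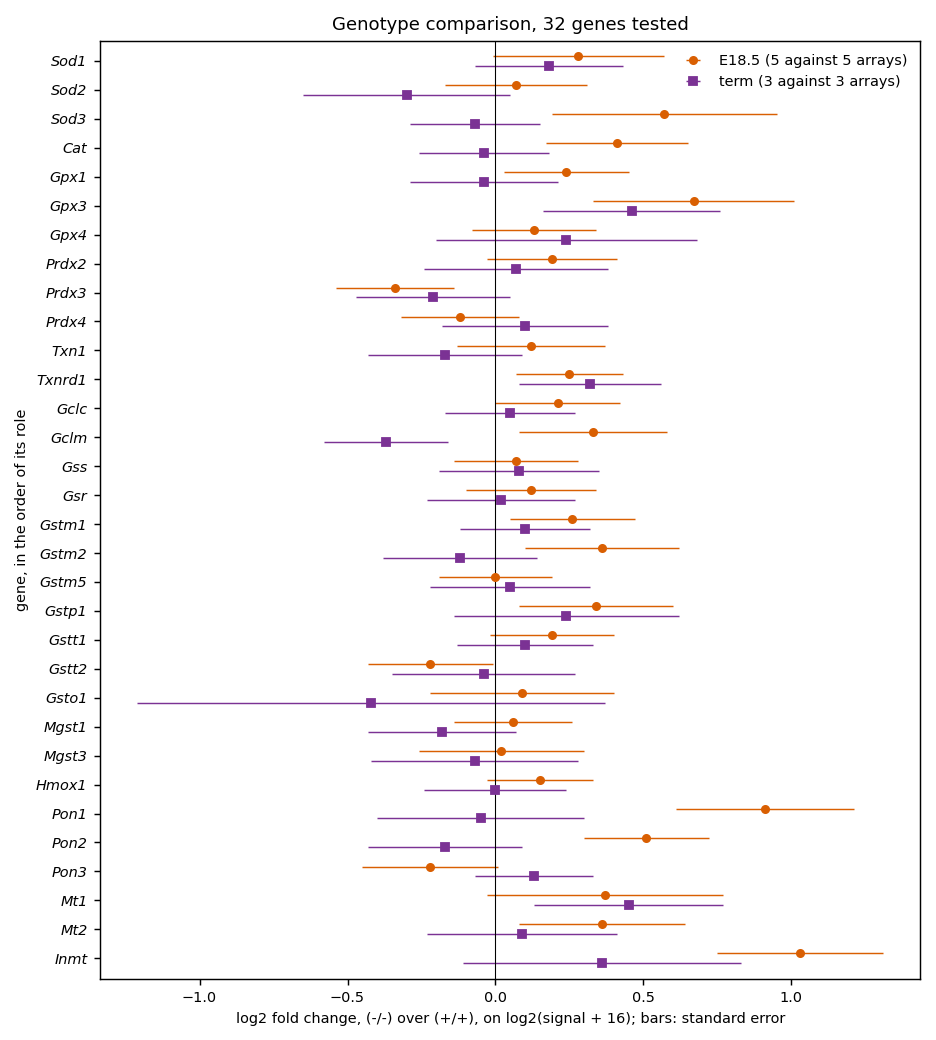
Log2 fold change of (-/-) over (+/+) lungs on log2(signal + 16) for the 32 genes tested, ordered by role, at E18.5 (circles, 5 against 5 arrays) and at term (squares, 3 against 3), with bars for the standard error. At E18.5 28 of 32 circles lie right of 0, with Inmt at 1.03 and Pon1 at 0.91 the farthest, and at term 17 of 32 squares do.

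Inmt encodes a methyltransferase that methylates indoleamines and thioethers and is abundant in lung. Its signals at E18.5 were 558.3, 617.0, 754.7, 377.4 and 571.3 on (-/-) replicates A to E and 191.8, 168.3, 254.1, 528.2 and 305.4 on (+/+) replicates I to M. Every (-/-) lung except D lay above every (+/+) lung, and D lay below L alone. The log2 fold change was 1.03 (standard error 0.28), a 2.05-fold higher level, with an unadjusted p of 0.00188 and an adjusted p of 0.622 from limma (exact permutation p = 0.0159).

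Paraoxonases hydrolyze lactones and organophosphates, with Pon1 known as a secreted enzyme of high density lipoprotein and Pon2 as an intracellular one. Pon1 measured 67.5, 136.3, 109.4, 165.6 and 147.0 on (-/-) replicates A to E and 73.2, 28.6, 29.8, 103.8 and 77.8 on (+/+) replicates I to M. The (-/-) lungs were the brighter, but A lay below I, L and M, so the groups overlapped. The log2 fold change was 0.91 (standard error 0.30), or 1.87-fold, with an unadjusted p of 0.00807 and an adjusted p of 0.856 from limma. Pon2 measured 99.3, 100.1, 110.6, 160.0 and 134.0 on (-/-) replicates A to E and 92.1, 84.1, 47.8, 85.0 and 94.4 on (+/+) replicates I to M. The lowest (-/-) lung, A, lay just above the highest (+/+) lung, M, and K was the lowest of all. Its log2 fold change was 0.51 (standard error 0.21), or 1.42-fold, with an unadjusted p of 0.0264 and an adjusted p of 0.856 from limma (exact permutation p = 0.00794, the smallest that 5 against 5 allows). It was 0.36 without K, 0.41 without D and 0.47 without E, where the unadjusted p was no longer under 0.05, whereas Inmt and Pon1 stayed under it without any 1 array. Pon3, also a lactonase, measured 72.4, 41.3, 63.3, 117.2 and 89.4 on (-/-) replicates A to E and 89.3, 84.2, 63.4, 112.4 and 98.1 on (+/+) replicates I to M. Both groups covered the same range, and the log2 fold change was -0.22 (standard error 0.23).

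Markers of other cells moved in part with these values in (+/+) lungs. The summed signal of the 3 airway markers measured (Scgb1a1 above all) was 2516 to 3278 in (-/-) lungs, and in (+/+) lungs 3272 and 3206 on L and M but 1785, 1388 and 1038 on I, J and K. Replicates I, J and K were also the lowest (+/+) lungs for Inmt, and J and K for Pon1, and L was the highest (+/+) lung for both. Among (-/-) lungs D had the highest airway sum, 3278, and the highest Pon1, but the lowest Inmt. Replicate B had the lowest airway sum there, 2516, but the second highest Inmt. The other airway markers, Foxj1 and the dim Tekt1, had means of 128 and 30.1 in (-/-) and 129 and 39.7 in (+/+) lungs. The 13 macrophage markers summed to 1371 to 3418 in (-/-) and 1085 to 2638 in (+/+) lungs. Of the 8 tested, 3 (Csf1r, C1qa and C1qb) were higher in (-/-) lungs at an unadjusted p under 0.05 from limma and 0 were lower. These 3 are also among the genes that the study picked out on these arrays. Some dim markers had lower means in (-/-) lungs, such as Mrc1 (27.4 against 37.7) and Msr1 (17.2 against 24.4). Xist was 80.0 on L and 44.9 on M, 14.3 to 37.0 on I, J and K, 27.2 to 99.8 on A, B, C and E, and 14.7 on D. With Xist in the fit, the log2 fold changes were 0.96 for Inmt, 0.84 for Pon1 and 0.51 for Pon2, each still with an unadjusted p under 0.05 from limma. The part of the airway and macrophage cells in the differences was not tested.

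**Figure D2:**
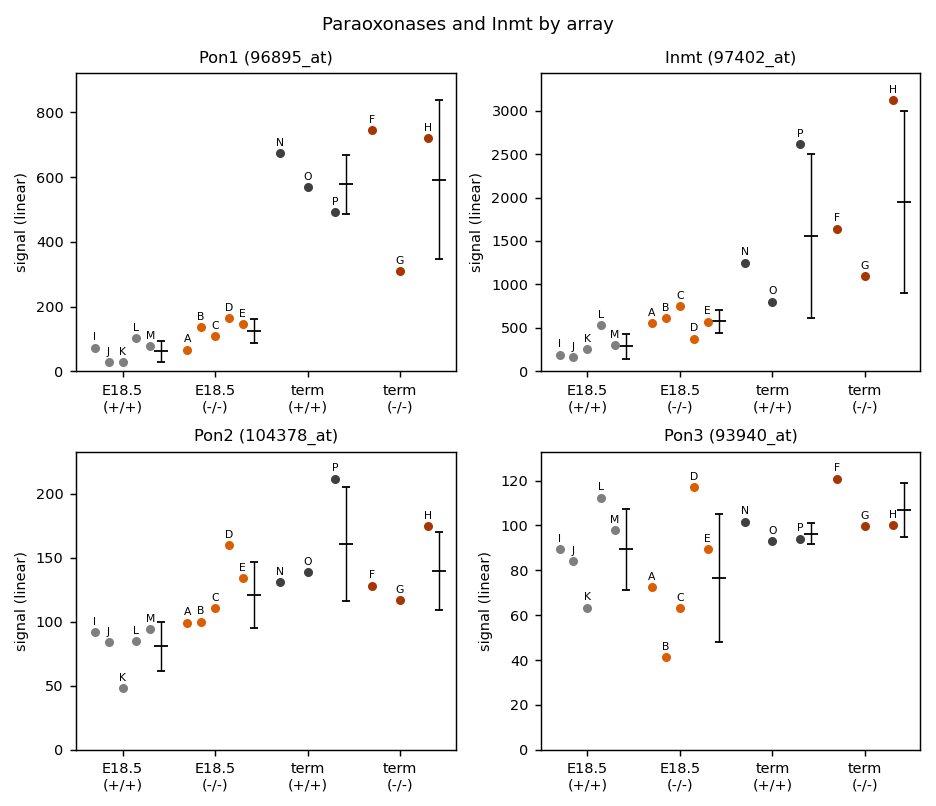
Linear signal of Pon1, Inmt, Pon2 and Pon3 on each array, labeled by its replicate letter, in the 4 groups, with the mean and SD beside each group (n = 5 at E18.5, n = 3 at term). Every term array lies above every E18.5 array for Pon1 and Inmt, while Pon3 stays between 41.3 and 120.9 throughout.

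Catalase, which breaks hydrogen peroxide into water and oxygen, was measured by 2 probe sets that did not move together. The brighter read 250.9, 415.5, 267.7, 371.6 and 251.8 on (-/-) replicates A to E and 246.3, 178.6, 140.5, 308.6 and 304.0 on (+/+) replicates I to M at E18.5. The ranges overlapped, with a log2 fold change of 0.41 (standard error 0.24, unadjusted p = 0.109 from limma). The dimmer read 114.3, 176.2, 167.8, 239.2 and 182.7 on (-/-) replicates A to E and 86.7, 69.8, 84.6, 92.2 and 156.8 on (+/+) replicates I to M. Only M among the (+/+) lungs reached into the range of the (-/-) lungs, where A was the lowest. Its log2 fold change was 0.76 (standard error 0.23), or 1.70-fold, with an unadjusted p of 0.00384 and an adjusted p of 0.786 from limma (exact permutation p = 0.0159), and it was 0.65 to 0.92 without each array in turn. At term the brighter probe set read 186.5, 213.5 and 176.2 on (-/-) replicates F to H and 177.8, 220.5 and 197.0 on (+/+) replicates N to P, and the dimmer 207.7, 128.4 and 233.1 on (-/-) replicates F to H and 249.4, 171.3 and 263.1 on (+/+) replicates N to P. Over time the dimmer one went from the lower to the higher signal in (+/+) lungs (log2 fold change 1.12, standard error 0.27, adjusted p = 0.0112 from limma, and 0.0725 without N), while the brighter one gave -0.18 (standard error 0.28) in (+/+) and -0.63 (standard error 0.22, adjusted p = 0.0505 from limma) in (-/-) lungs. In (-/-) lungs the dimmer one gave 0.09 (standard error 0.25). Averaged over genotypes the probe sets gave 0.61 (adjusted p = 0.0126 from limma) and -0.40 (adjusted p = 0.0711), so the direction for catalase over time depends on the probe set.

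**Figure D3:**
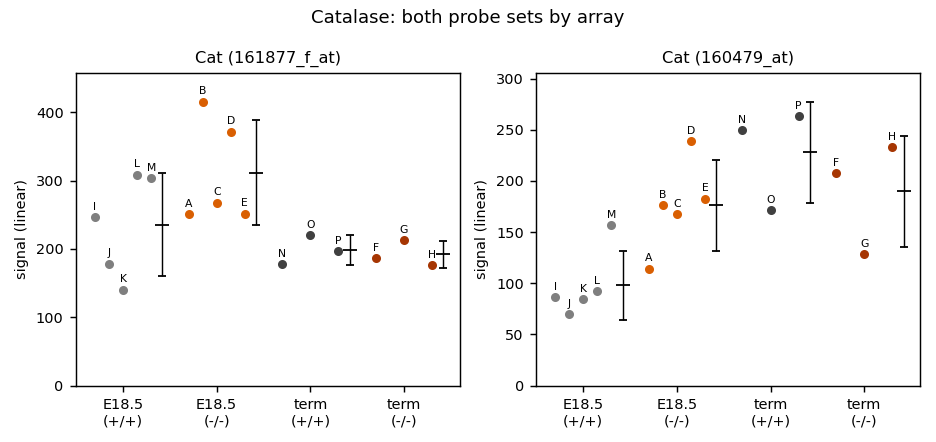
Linear signal of the 2 catalase probe sets (the brighter on the left, the dimmer on the right) on each array, with the mean and SD of each group (n = 5 at E18.5, n = 3 at term). On the dimmer one, 4 of the 5 E18.5 (+/+) arrays lie below every array of the other groups, and on the brighter one the highest signals, 415.5 and 371.6, are E18.5 (-/-) lungs.

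No superoxide dismutase had an unadjusted p under 0.05 between the genotypes at E18.5. Cytosolic Sod1 measured 1593.6, 2243.8, 2162.9, 1487.6 and 1644.0 on (-/-) replicates A to E and 704.3, 1376.1, 2463.0, 1808.2 and 1628.5 on (+/+) replicates I to M, with the lowest and the highest signal both in (+/+) lungs (I and K). Mitochondrial Sod2 measured 48.6, 57.8, 89.8, 72.4 and 89.1 on (-/-) replicates A to E and 71.8, 54.4, 53.5, 50.9 and 111.1 on (+/+) replicates I to M, and extracellular Sod3 79.7, 108.6, 24.0, 63.7 and 54.3 on (-/-) replicates A to E and 116.9, 26.7, 38.3, 18.5 and 19.3 on (+/+) replicates I to M. The log2 fold changes were 0.28, 0.07 and 0.57, with standard errors of 0.29, 0.24 and 0.38 (unadjusted p from limma 0.342, 0.764 and 0.154). Sod3 was low on J, K, L and M and high on I, the array that stood apart, and without I its log2 fold change was 0.91 (unadjusted p = 0.0125, adjusted p = 0.51 from limma).

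Gpx3, the secreted glutathione peroxidase, and the metallothioneins Mt1 and Mt2, small proteins that bind zinc and copper, varied widely and in part together between lungs of a genotype. Gpx3 measured 3048.8, 3767.3, 4140.4, 2047.4 and 2862.9 on (-/-) replicates A to E and 1309.0, 997.2, 4157.4, 2627.2 and 1890.6 on (+/+) replicates I to M. Mt1 measured 628.9, 1130.9, 837.8, 371.2 and 557.2 on (-/-) replicates A to E and 266.3, 307.5, 1571.5, 496.2 and 499.6 on (+/+) replicates I to M, and Mt2 1251.6, 1997.7, 1301.4, 926.0 and 1056.0 on (-/-) replicates A to E and 650.2, 757.8, 1741.4, 1130.2 and 939.2 on (+/+) replicates I to M. Replicate K was by far the highest (+/+) lung for all 3 genes, I and J were the lowest, and among the (-/-) lungs D was the lowest for all 3. The log2 fold changes were 0.67 for Gpx3 (standard error 0.34, unadjusted p = 0.066 from limma), 0.37 for Mt1 (standard error 0.40) and 0.36 for Mt2 (standard error 0.28). Without K they were 0.94, 0.78 and 0.56, with unadjusted p of 0.00628, 0.0206 and 0.0417 and adjusted p of 0.51, 0.51 and 0.559 from limma. The count of genes with an unadjusted p under 0.05 was 6 without K and 5 without C. Without K, 5 were higher in (-/-) lungs and 1, Prdx3, was lower. All 5 without C were higher.

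The other genes tested at E18.5 had log2 fold changes from -0.34 to 0.36. Of the peroxiredoxins and thioredoxin, Prdx2, Txn1 and Txnrd1 gave 0.19, 0.12 and 0.25, and mitochondrial Prdx3 and Prdx4 of the endoplasmic reticulum gave -0.34 and -0.12. The enzymes of glutathione synthesis and recycling Gclc, Gclm, Gss and Gsr gave 0.21, 0.33, 0.07 and 0.12. Among the glutathione S-transferases the values ran from -0.22 (Gstt2) to 0.36 (Gstm2), but the other tested probe sets of Gstm1, Gstm2 and Gstm5 gave -0.28, -0.52, and -0.44 and -0.24, opposite in sign to 0.26 and 0.36 for the first 2 and against 0.00 for Gstm5, and these related genes may share probes. Hmox1, the inducible heme oxygenase, gave 0.15 (standard error 0.18).

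At term no gene passed a p threshold between the genotypes, but with 3 against 3 arrays the standard errors were 0.20 to 0.79. The largest log2 fold changes were 0.46 for Gpx3 (standard error 0.30), 0.45 for Mt1 (standard error 0.32) and -0.42 for Gsto1 (standard error 0.79). The log2 fold changes of the 32 genes tested were positive for 17 and negative for 15, with a median of 0.04 against 0.01 for all 5834 probe sets. None had an adjusted p under 0.05 (background 0%) or an unadjusted p under 0.05 (background 0.686%). Without (-/-) replicate G, Gpx3 and Mt1 had an unadjusted p under 0.05, and without (+/+) replicate P, Gpx3 and Sod2 did. The groups did not overlap for 1 gene, Gclm, the modifier subunit of the first enzyme of glutathione synthesis (background 3.29%). Gclm measured 74.4, 68.9 and 71.6 on (-/-) replicates F to H and 120.0, 86.5 and 87.1 on (+/+) replicates N to P. All (-/-) lungs were lower, with a log2 fold change of -0.37 (standard error 0.21, unadjusted p = 0.113 from limma, exact permutation p = 0.1, the smallest that 3 against 3 allows). Pon1 measured 746.5, 310.2 and 721.1 on (-/-) replicates F to H and 673.7, 569.4 and 492.3 on (+/+) replicates N to P, with G the dimmest of the 6. Inmt measured 1643.6, 1095.8 and 3118.2 on (-/-) replicates F to H and 1250.4, 803.1 and 2611.1 on (+/+) replicates N to P, with H and P the brightest of their groups. The log2 fold changes were -0.05 (standard error 0.35) for Pon1 and 0.36 (standard error 0.47) for Inmt. Pon2 measured 128.1, 116.8 and 174.5 on (-/-) replicates F to H and 130.9, 138.6 and 211.7 on (+/+) replicates N to P and gave -0.17 (standard error 0.26). Gsto1, an omega class transferase, was 909.4 on (+/+) replicate O and 45.3 and 118.8 on N and P.

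The difference between the genotype effects, term minus E18.5, was tested in a fit of all 16 arrays. It was negative for 23 of the 32 genes, with a median of -0.16 against -0.01 for all probe sets. None had an adjusted p under 0.05 (background 0%) or an unadjusted p under 0.05 (background 1.48%). The nearest were Pon2 at -0.68 (unadjusted p = 0.0551 from limma), Gclm at -0.69 (0.0593) and Pon1 at -0.96 (0.0639), and Inmt gave -0.67 (0.237). Without 1 array in turn the unadjusted count was 0 to 3, with Sod3, Pon2 and Gclm under 0.05 without I and Pon1 and Pon2 without A or H. The dimmer probe set of Cat gave -1.03 (unadjusted p = 0.012, adjusted p = 1.0 from limma, and unadjusted p = 0.0539 without G). The genotype effects at the 2 times share no array, and they had the same sign for 17 of the 32 genes (53.1%, against 56.4% of the 5250 probe sets tested at both times).

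Between E18.5 and term, Pon1 and Inmt rose several-fold in both genotypes, Sod2, Gclm, Mgst1, Pon2 and Mt1 rose less, and Gstt1, Gstt2, Prdx2, Gss and Hmox1 fell. These 12 of the 32 genes had an adjusted p under 0.05 from limma in the fit of all arrays, with the effect averaged over the genotypes. The 7 that rose stand against a background of 21.1% of all 6409 probe sets and the 5 that fell against 23%, so the shares, 7 and 5 of 32, were near those of all probe sets. The median log2 fold change of the 32 genes was -0.07, against -0.06 for all. In (+/+) lungs alone 6 genes rose (background 10.7%) and 0 fell (background 8.08%), and in (-/-) lungs alone 4 rose (background 13.8%) and 2 fell (background 13.1%). The 2 time effects share no array. They had the same sign for 26 of the 32 genes (81.2%, against 85.4% of 5842 probe sets).

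With each array centered on its median the median log2 fold change of all probe sets went from -0.04 to 0.10 in (+/+) lungs, from -0.06 to 0.04 in (-/-) lungs and from -0.06 to 0.06 averaged. The share of rises among the calls of all probe sets then went from 56.9% to 74.8% in (+/+) lungs, from 51.5% to 66.8% in (-/-) lungs and from 47.9% to 62.1% averaged. Prdx2, Gss and Hmox1 kept their sign there but no longer passed. For the genotype comparisons the share of higher values among unadjusted calls went from 50.5% to 62.2% at E18.5 and from 12.5% to 23.1% at term (27.3% with the GAPDH ratio in the fit), and for the difference of the effects from 45.3% to 28%.

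**Figure D4:**
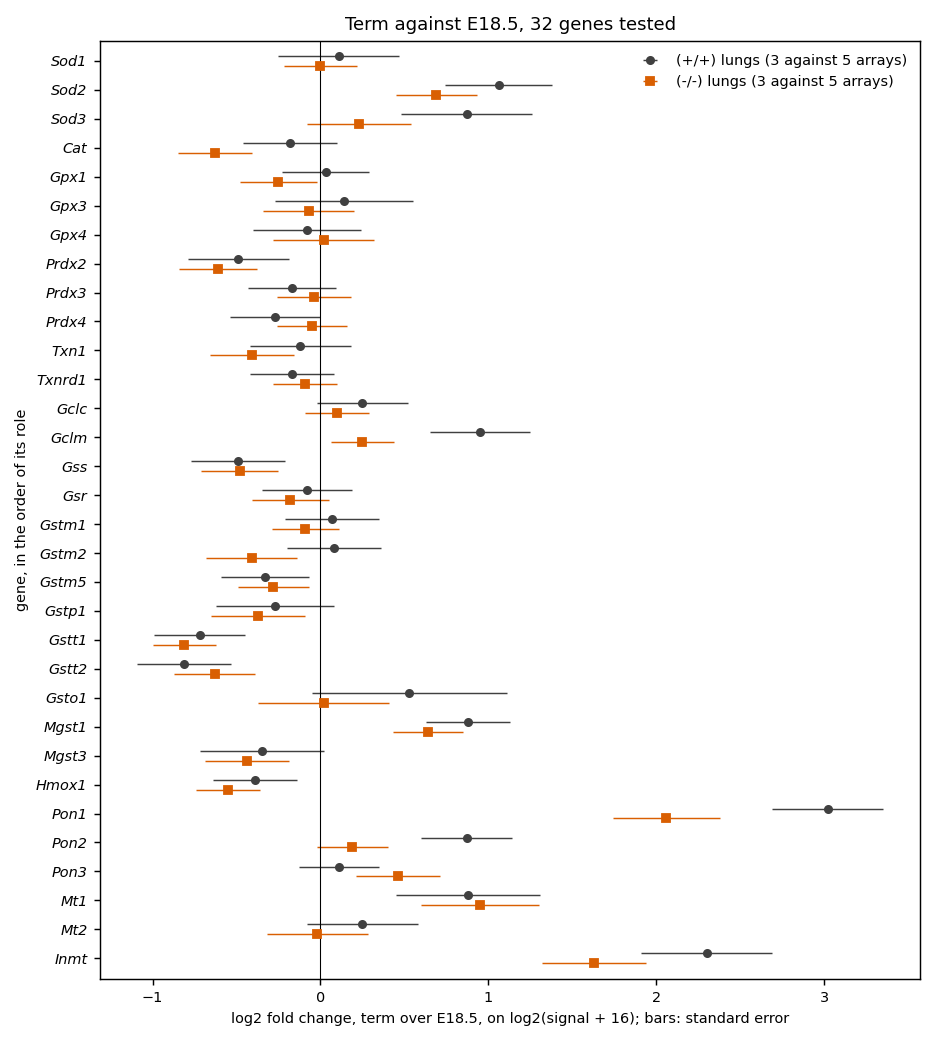
Log2 fold change of term over E18.5 on log2(signal + 16) for the 32 genes tested, ordered by role, in (+/+) lungs (circles) and (-/-) lungs (squares), 3 against 5 arrays each, with bars for the standard error. Pon1 (3.02 and 2.06) and Inmt (2.30 and 1.63) lie far to the right of the other genes in both genotypes.

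Pon1 was 62.6 ± 32.7 (SD, n = 5) at E18.5 and 579 ± 91.0 (SD, n = 3) at term in (+/+) lungs, and 125 ± 38.1 (SD, n = 5) and 593 ± 245 (SD, n = 3) in (-/-) lungs. All term lungs, from 310.2 up, lay above all E18.5 lungs, the highest of which was 165.6. The log2 fold changes were 3.02 (standard error 0.33, 8.10-fold, adjusted p = 7.42e-05 from limma) and 2.06 (standard error 0.32, 4.17-fold, adjusted p = 0.00109). Inmt was 290 ± 144 and 1555 ± 942 in (+/+) lungs, and 576 ± 136 and 1953 ± 1046 in (-/-) lungs. Its term lungs, from 803.1 up, again all lay above the E18.5 lungs, which reached 754.7. The log2 fold changes were 2.30 (standard error 0.39, adjusted p = 0.00152 from limma) and 1.63 (standard error 0.31, adjusted p = 0.00335), and both genes passed without any 1 array. Pon2 rose in (+/+) lungs, from 80.7 ± 18.9 to 160 ± 44.6 (log2 fold change 0.87, standard error 0.27, adjusted p = 0.0336 from limma), and was 121 ± 26.0 and 140 ± 30.6 in (-/-) lungs (log2 fold change 0.19, standard error 0.21). Pon3 gave 0.11 and 0.46, with neither passing. The airway marker sum, nearly all Scgb1a1, was 1038 to 3278 at E18.5 and 4019 to 5694 at term, higher on every term array. Mean Foxj1 also rose, from 128 to 175 in (-/-) and from 129 to 172 in (+/+) lungs. The dim Tekt1 went the other way, from 30.1 to 22.9 and from 39.7 to 19.9. The macrophage sum, in which Lyz2 had the highest mean, was 1085 to 3418 at E18.5 and 2397 to 3971 at term. Of the 8 macrophage markers tested over time, averaged, 3 rose and 0 fell at an unadjusted p under 0.05 from limma. Not all means rose. Cd68 went from 99.1 to 68.1 in (-/-) and from 89.0 to 74.6 in (+/+) lungs, and C1qb from 177 to 113 and from 96.9 to 82.3. The part of these cells in the rise of Pon1 and Inmt was not tested.

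Sod2 read 172.1, 107.5 and 97.6 on (-/-) replicates F to H and 207.0, 209.5 and 82.3 on (+/+) replicates N to P at term. F, N and O lay above all E18.5 lungs, and G, H and P lay within the E18.5 range, which reached 111.1 on M. The 8 heart and skeletal muscle markers summed to 11610 on M and 8348 on F, against 717 to 4891 on the other arrays. F was the highest (-/-) term lung for Sod2, but N, with Sod2 at 207.0, had a muscle sum of 1014. The part of muscle tissue in the Sod2 values was not tested. The log2 fold change was 1.06 (standard error 0.32, adjusted p = 0.0302 from limma) in (+/+), 0.69 (standard error 0.24, adjusted p = 0.0496) in (-/-) lungs and 0.87 (standard error 0.21, adjusted p = 0.00229) averaged. Gclm had been 55.7, 68.2, 49.0, 51.1 and 65.3 on (-/-) replicates A to E and 72.0, 19.6, 40.8, 42.4 and 50.3 on (+/+) replicates I to M at E18.5, where J was the lowest and I the highest. Its rise was 0.95 (standard error 0.30, adjusted p = 0.0386 from limma) in (+/+) lungs and 0.60 (standard error 0.17, adjusted p = 0.00874) averaged, and in (-/-) lungs it was 0.25 (standard error 0.19, adjusted p = 0.338). Mgst1, a microsomal glutathione transferase, was 97.7, 99.3, 113.3, 162.2 and 132.2 on (-/-) replicates A to E and 105.6, 145.0, 83.8, 117.8 and 121.0 on (+/+) replicates I to M at E18.5. At term it read 186.6, 223.4 and 174.0 on (-/-) replicates F to H and 283.2, 222.4 and 173.2 on (+/+) replicates N to P. Every term lung was above every E18.5 lung, and the log2 fold changes were 0.88 (standard error 0.25, adjusted p = 0.0249 from limma) and 0.64 (standard error 0.21, adjusted p = 0.0376).

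Mt1 read 1428.8, 792.3 and 1874.4 on (-/-) replicates F to H and 852.9, 973.6 and 1000.9 on (+/+) replicates N to P at term. At E18.5 only B, C and K reached into that range. The rise was 0.91 averaged over genotypes (standard error 0.31, adjusted p = 0.0219 from limma) and did not pass within either genotype (0.88 and 0.95). Mt2, its neighbor on chromosome 8, read 1117.4, 882.4 and 1954.7 on (-/-) replicates F to H and 1188.6, 975.4 and 1379.7 on (+/+) replicates N to P. These lie within its E18.5 range, and the averaged log2 fold change was 0.12 (standard error 0.23). Gpx3 read 3249.9, 2075.9 and 3762.3 on (-/-) replicates F to H and 1901.6, 1716.5 and 2954.2 on (+/+) replicates N to P and gave 0.03 (standard error 0.26) averaged.

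The within-genotype calls of the smaller rises hung on single arrays. In (+/+) lungs the count of 6 was 3 without J, 3 without L, 2 without N and 2 without O, with only Pon1 and Inmt left in the last 2. In (-/-) lungs the count of 6 was 3 without A, without C or without F, with Gstt1, Pon1 and Inmt left each time. Averaged over genotypes, Pon2 (0.45) and Mt1 (0.78) no longer passed without H, Prdx2 not without G, N or O, and Gss not without A, B, C, F, H, K or N. The other 8 calls passed without any 1 array.

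**Figure D5:**
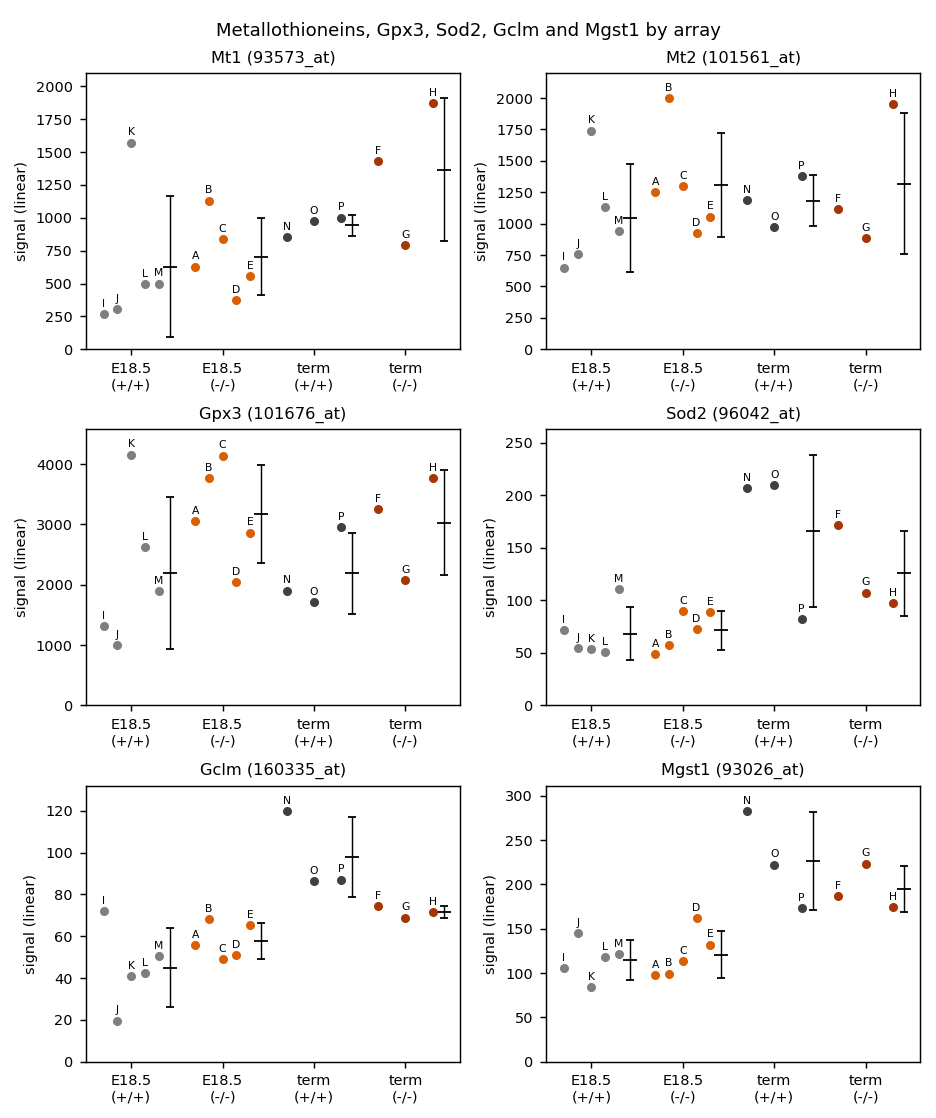
Linear signal of Mt1, Mt2, Gpx3, Sod2, Gclm and Mgst1 on each array, labeled by its replicate letter, with the mean and SD of each group (n = 5 at E18.5, n = 3 at term). Replicate K is the highest E18.5 (+/+) lung for Mt1, Mt2 and Gpx3, and every term array lies above every E18.5 array for Mgst1.

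Of the 5 genes that fell, Gstt1 and Gstt2 encode theta class glutathione S-transferases and are neighbors on chromosome 10. Gstt1 read 144.1, 106.7, 155.5, 117.5 and 160.1 on (-/-) replicates A to E and 73.5, 134.2, 117.5, 166.6 and 110.4 on (+/+) replicates I to M at E18.5 and 69.2, 69.9 and 72.6 on (-/-) replicates F to H and 62.3, 49.6 and 85.6 on (+/+) replicates N to P at term. All term lungs but P lay below the lowest E18.5 lung, I. The log2 fold change was -0.81 (standard error 0.19, adjusted p = 0.00984 from limma) in (-/-) lungs, -0.72 (standard error 0.27, adjusted p = 0.0759) in (+/+) lungs and -0.76 (standard error 0.16, adjusted p = 0.000907) averaged. Gstt2 read 170.0, 85.3, 95.1, 129.0 and 127.8 on (-/-) replicates A to E and 125.3, 131.3, 145.4, 196.2 and 115.1 on (+/+) replicates I to M at E18.5 and 59.9, 57.9 and 100.6 on (-/-) replicates F to H and 56.3, 54.0 and 123.5 on (+/+) replicates N to P at term. H and P were high among the term lungs, and the averaged log2 fold change was -0.72 (standard error 0.19, adjusted p = 0.00451 from limma).

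Hmox1, which breaks down heme, read 286.6, 218.3, 273.5, 269.3 and 269.9 on (-/-) replicates A to E and 229.6, 269.9, 226.2, 276.0 and 184.7 on (+/+) replicates I to M at E18.5. At term it read 165.4, 164.0 and 196.2 on (-/-) replicates F to H and 134.7, 186.1 and 213.4 on (+/+) replicates N to P. All (-/-) term lungs were below all (-/-) E18.5 lungs, and in (+/+) lungs the times overlapped. The log2 fold change was -0.55 (standard error 0.19, adjusted p = 0.0442 from limma) in (-/-), -0.39 (standard error 0.25) in (+/+) lungs and -0.47 (standard error 0.14, adjusted p = 0.0121) averaged. The erythroid marker Alas2 was 1064 ± 399 (SD, n = 5) at E18.5 and 353 ± 118 (SD, n = 3) at term in (-/-) lungs. In (+/+) lungs it was 996 ± 973 (SD, n = 5) and 325 ± 254 (SD, n = 3). The 9 erythroid markers measured, mostly Alas2 and Tfrc, summed to 848 to 3284 at E18.5 and 780 to 1334 at term. Of the 5 tested over time, averaged, 2 were lower at an unadjusted p under 0.05 from limma and 0 higher. Mean Tfrc went from 579 to 390 in (-/-) and from 386 to 412 in (+/+) lungs. Dim Klf1 went from 28.4 to 58.2 in (-/-) and from 43.9 to 42.6 in (+/+) lungs. The part of erythroid cells in the lower Hmox1 was not tested.

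Prdx2, a cytosolic peroxiredoxin abundant in red cells, read 1045.4, 966.1, 1178.6, 1213.6 and 1504.2 on (-/-) replicates A to E and 724.2, 1131.2, 861.4, 1207.9 and 1290.4 on (+/+) replicates I to M at E18.5 and 965.6, 591.5 and 767.7 on (-/-) replicates F to H and 599.8, 589.9 and 1057.2 on (+/+) replicates N to P at term. G, N and O lay below all E18.5 lungs, and F, H and P lay within the E18.5 range. Its averaged log2 fold change was -0.55 (standard error 0.18, adjusted p = 0.021 from limma). Gss, glutathione synthetase, read 254.4, 267.9, 226.8, 157.3 and 156.3 on (-/-) replicates A to E and 154.6, 208.3, 274.4, 209.4 and 161.1 on (+/+) replicates I to M at E18.5. At term it read 132.1, 172.0 and 133.1 on (-/-) replicates F to H and 90.7, 169.9 and 161.6 on (+/+) replicates N to P, with N the lowest. Its averaged log2 fold change was -0.48 (standard error 0.18, adjusted p = 0.0328 from limma).

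The remaining 20 genes tested did not pass over time, with averaged log2 fold changes from -0.40 (Cat) to 0.55 (Sod3, standard error 0.27, adjusted p = 0.0993 from limma). Sod1 gave 0.06 (standard error 0.22), Gpx1 and Gpx4 gave -0.11 and -0.03, and Gclc, the catalytic subunit partnered by Gclm, gave 0.18 (standard error 0.16). Gstm1 gave -0.01, but its other probe set gave -0.75 (standard error 0.23, adjusted p = 0.0119 from limma). Gsta4, Nqo1, Hmox2 and Ephx1 were not tested because no group median passed the level. Their mean signals over all arrays were 36.5, 19.4, 39.7 and 40.7. Nqo1, a classical target of Nrf2, was 12.3 to 39.3 at E18.5 and 8.6 to 19.6 at term, among the dim probe sets of the array, and Hmox2, the constitutive heme oxygenase, was 30.3 to 81.1 and 18.4 to 31.3.

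The genes around these enzymes were read from a pair of lists. Of 49 other antioxidant and glutathione genes 39 were on the array, and over time, averaged, 8 of the 30 tested rose and 8 fell, near the shares of all probe sets (21.1% and 23%). Those named here had the lowest p in the list. They were Slc3a2, a chain of the cystine carrier (log2 fold change 1.70, standard error 0.23), Tkt and Pgd of the pentose phosphate pathway (-1.42 and -1.15, standard errors 0.19 and 0.20) and the copper chaperone Atox1 (-1.63, standard error 0.23). Of 43 other detoxification enzymes 33 were on the array, and 6 of the 21 tested rose and 8 fell, against the same shares. They were led by the aryl hydrocarbon receptor Ahr (1.25, standard error 0.14), the flavin monooxygenase Fmo1 (1.35, standard error 0.18), the alcohol dehydrogenase Adh1 (-1.89, standard error 0.28) and the aldo-keto reductase Akr1b8 (-0.80, standard error 0.15). In (+/+) lungs alone, 3 of the 28 tested of the first list rose and 4 fell, and 4 of the 21 tested of the second rose and 4 fell, where 10.7% and 8.08% of all probe sets did. In (-/-) lungs alone, 5 of 30 rose and 6 fell, and 4 of 22 rose and 5 fell, where 13.8% and 13.1% of all probe sets did. Bach1, a repressor at antioxidant response elements, rose in both genotypes, by 1.49 on the log2 scale in (+/+) lungs (standard error 0.42, adjusted p = 0.0223 from limma) and by 1.64 in (-/-) lungs (standard error 0.35, adjusted p = 0.00612).

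Between the genotypes no tested gene of either list had an adjusted p or an unadjusted p under 0.05 from limma at E18.5 or at term. Ugt1a2, of the second list, is among the genes that the study picked out at E18.5 on these same arrays. The medians at E18.5 were 0.11 in both lists, against 0.20 for the antioxidant and detoxification genes themselves and 0.04 for all probe sets. The lowest unadjusted p at E18.5 belonged to Txn2 (log2 fold change 0.33, limma's adjusted p = 0.87), the mitochondrial thioredoxin, and to Aldh2 (0.35, adjusted p = 0.864), the mitochondrial aldehyde dehydrogenase. At term they belonged to Pgd (log2 fold change 0.50, limma's adjusted p = 1.0) and to the sulfurtransferase Tst (0.54, adjusted p = 1.0).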

How the data were processed

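The deposited table holds intensity values, the linear signal that the authors computed per probe set of the Affymetrix Murine Genome U74Av2 array with Microarray Suite and scaled per array to a common mean. The detection p-values of that software were not used here. Probe sets were named from the platform annotation (10855 of 12488 with 1 symbol, 396 with several, 1171 with none, 66 controls), and of a gene's probe sets the one with the highest mean log2 signal was used.

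Arrays were grouped by their labels. Signals were tested as log2(signal + 16) with limma 3.58.1 (R 4.3.3, intensity trend, Benjamini-Hochberg adjustment over all tested probe sets, threshold 0.05). A probe set was tested if its median in at least 1 group exceeded the signal that 45% of values exceed (48.6 to 54.2). A fold change on this scale understates changes of dim genes. Genotypes were compared within each time, times within each genotype, and the averaged time effect and the difference of the genotype effects in 1 fit of all 16 arrays. Exact permutation tests are two-sided. The fits were checked on simulated data. Summaries used Python 3.11.15, pandas 2.3.3 and scipy 1.17.1, and figures matplotlib 3.10.9.

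The members and lists were chosen with earlier results of these data known. Per-array values are given for genes of central function and for those past a threshold in any comparison. Of the sources, none states that lungs of a group came from separate litters, so p-values measure the spread between these arrays, whose number limits the precision. The sources used here give no batch of hybridization, and time cannot be told apart from any batch. The 14 alternatives covered normalization, pseudocount, filter, fit, weights, covariates (Xist, GAPDH ratio), probe set choice, the methods' t-test on the signals and leaving out each array.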

Additional observations from a re-analysis of the deposited data

Results flagged for a closer look

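Of 72 sets of arrays (each gene in each E18.5 group of 5), 3 had 1 array far from the other 4, and chance gives about 1 in 20. Hmox1 was lowest on (-/-) replicate B at 218.3, against 269.3 to 286.6 on the other 4. Ephx1, which was not tested, was highest on (-/-) replicate C at 59.2, against a group median of 22.5. Pon2 was lowest on (+/+) replicate K at 47.8, against 84.1 to 94.4 on the other 4, and its E18.5 log2 fold change was 0.36 without K.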

How the results depend on the processing

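No gene that passed a threshold in a comparison changed sign there under the alternatives run. The small medians did change sign. The averaged time median, -0.07, was 0.06 with median centering and 0.02 without N, and in (-/-) lungs -0.06 became 0.05 with median centering and 0.03 without G. In (+/+) lungs 0.05 became -0.08 with the stricter filter or with all probe sets, -0.02 with array quality weights and -0.01 without P. At term 0.04 became -0.02 with the GAPDH ratio in the fit, -0.03 without H and -0.04 without N. At E18.5 the median log2 fold change of the genes was 0.15 to 0.25, and Pon1 and Inmt had an unadjusted p under 0.05 in all 22 alternatives (0.59 to 1.12 and 0.88 to 1.27). Over time, Pon1 passed in every alternative, and Inmt in all but the methods' t-test within each genotype. Averaged over genotypes, Sod2, Gclm, Mgst1, Gstt1 and Gstt2 passed in every alternative too. Hmox1 did not pass with median centering (-0.35), nor Pon2 (0.49) and Mt1 (0.86) with Xist in the fit. The median over time in (+/+) lungs, 0.05, was 0.19 with median centering and 0.21 with Xist in the fit. The count of 6 genes past the threshold there was 3 without a filter, 10 with array quality weights, 2 with Xist in the fit, 3 with the GAPDH ratio in the fit, 1 by the methods' t-test and 2 to 8 without 1 array in turn. In (-/-) lungs the count of 6 was 3 by the methods' t-test and 3 to 8 without 1 array in turn. The cause was not tested. No paired analysis was possible because every replicate letter is used once. Dim genes such as Nqo1 are limited by their low signal.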
